A study of Equus asinus with 6 samples.

Results

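The proteasome is the large protease that degrades proteins tagged with ubiquitin. Its genes were taken from the count table as every row whose gene name begins with PSM, a letter from A to G and a number. The rule found 48 of the 20873 genes listed. All but PSMC3IP encode proteasome subunits, regulators or assembly factors. PSMC3IP shares only its name and encodes a protein of meiotic recombination. The counts are from Guangling donkeys, a Chinese breed, and the tissue was longissimus dorsi, a muscle that runs along the spine. Muscle of high intramuscular fat (IMF, the fat between and within muscle fibres) gave 3 libraries and low IMF muscle gave 3, all from donkeys aged 24 months. No treatment is named, and the sources used here give neither the IMF values nor the sex. The labels do not say whether each library is a different animal, so the p-values reflect only how these libraries vary, which may be technical. Reads assigned to genes came to 39083515, 47494157 and 39052998 at high IMF and to 46360965, 45617163 and 44313770 at low IMF. The 13 muscle fibre markers listed were detected in every library. By their median, the 6 adipocyte markers went against the label of 1 library. Their median level, on a log2 scale centred on the mean of each gene, was 1.07, 2.83 and -0.98 at high IMF and -3.11, 0.33 and 0.08 at low IMF, so high IMF replicate 3 lay below low IMF replicates 2 and 3. Not every marker did so. THRSP was at 3.02 FPKM in high IMF replicate 3, above the 0.06, 1.17 and 1.10 FPKM of the low IMF libraries. The summed FPKM of the 6 markers ran from 52.3 to 323.5 at high IMF and from 141.7 to 195.7 at low IMF. FABP4 was highest in low IMF replicate 1 and made up 193.97 FPKM of the sum there. Of the 6 only LEP was at 0 reads, in low IMF replicate 1.

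In the 26S proteasome, a barrel-shaped core, the 20S particle, is capped by the 19S regulatory particle. The core is a stack of rings of alpha and beta subunits. The alpha rings form the gate, and 3 of the beta subunits cut proteins. The 19S particle binds the ubiquitin chain, removes it, unfolds the substrate with a ring of ATPases and feeds it into the core. In skeletal muscle this pathway carries out much of the breakdown of contractile proteins, and it is known for its part in muscle wasting.

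The design sets muscle of high IMF against muscle of low IMF. No proteasome gene differed between the groups past the threshold. Of the 48 genes, 47 passed the filter on low counts, and edgeR's quasi-likelihood test called 0 of them higher and 0 lower at high IMF, with a Benjamini-Hochberg adjusted p under 0.05 as the threshold. The background was the same, with 0% of 15933 genes called in each direction. At an unadjusted p under 0.05 it had 0 of the 47, against 7.27% of all genes (4.53% higher and 2.74% lower), and limma-voom had 0 of the 47, against 6.97%. After adjustment limma-voom called 0 of the 47, against 0% of all genes. The DESeq2 Wald test called 0 of the 47 after adjustment, against 1.16% of all genes to which it gave an adjusted p. At an unadjusted p under 0.05 it had 1 of the 48, PSMA8, against 7.54% of all genes. The authors' deposited table marked 0 of the 48 as changed, and its smallest adjusted p among them was 0.945.

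The intervals around most of these folds were narrow. In 44 of the 47, or 93.6%, the 95% interval of the fold lay within 2-fold either way, against 54.5% of all genes tested. In 23 of the 47, or 48.9%, it lay within 1.5-fold either way, against 20.1% of all genes. The genes with intervals past 2-fold were PSMB9, PSMB10 and PSMG2. The fitted log2 folds of high over low IMF muscle ran from -0.38 for PSMB9 to 0.23 for PSMD2. Their median was -0.11, beside 0.01 for all genes. A log2 fold below 0 was found for 33 of the 47, or 70.2%, against 48.8% of all genes. That count depended on the scaling and on high IMF replicate 1. It was 19 of 47 with library size only and 20 of 47 without high IMF replicate 1, where the medians were 0.01 and 0.02. With library size only, the median of all genes moved to 0.15. Without high IMF replicate 3, whose adipocyte markers were low, 42 of 47 were below 0 with a median of -0.22, and 0 of the 47 were called.

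**Figure D1:**
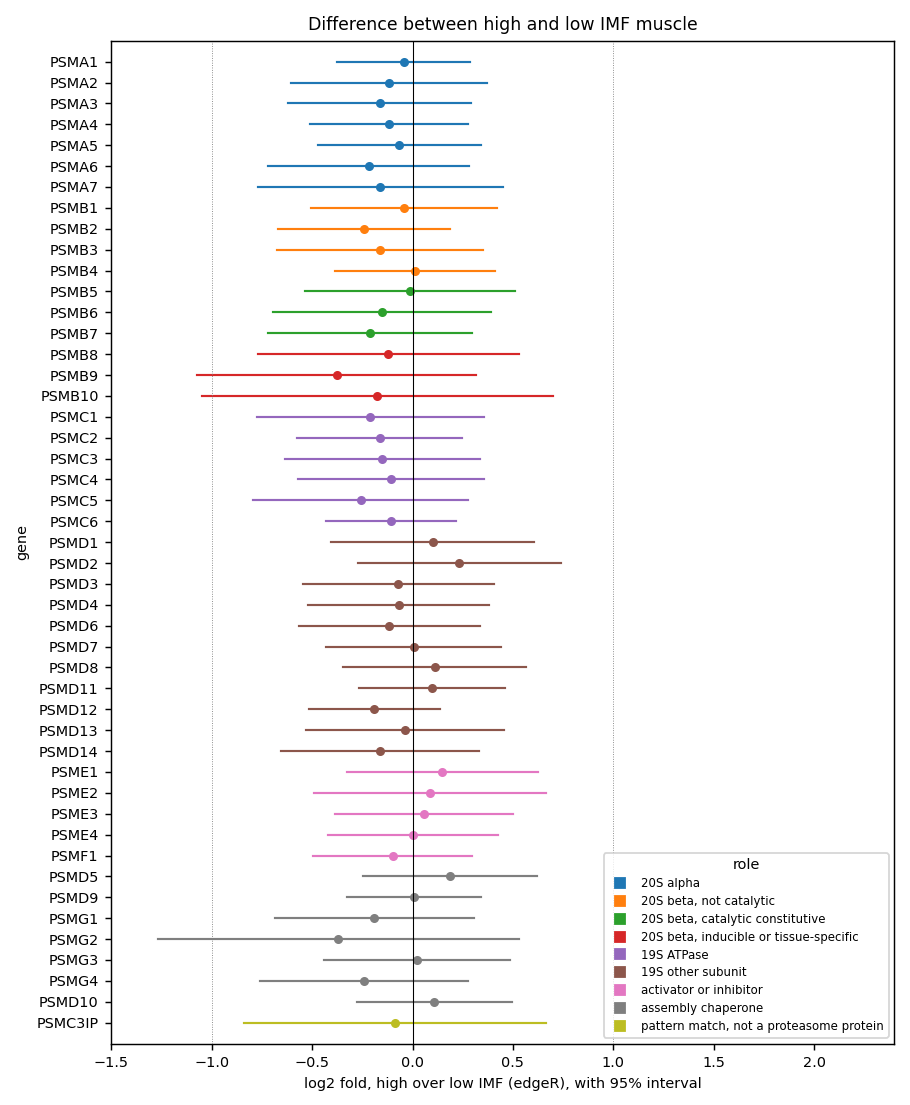
Fitted log2 fold of high over low IMF muscle (points, edgeR) with its 95% interval (lines) for the 47 tested genes, coloured by role, with dotted lines at a log2 fold of -1 and 1. Each interval crosses 0, and only those of PSMB9, PSMB10 and PSMG2 pass a dotted line.

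Proteasome transcripts were abundant in this muscle. Per length, in the deposited FPKM (fragments scaled by gene length and sequencing depth), the 47 genes had a median level of 54.4, and 38 were at 20 FPKM or more on average over the 6 libraries. Their median percentile among all tested genes was 93.7. The catalytic subunit PSMB7 was at the top with 143.0 FPKM, and the ATPase PSMC3 led the 19S particle with 100.9 FPKM. The lowest 19S subunit was PSMD12, a scaffold of the lid, with 20.8 FPKM. The gene model length implied by count and FPKM was 4358 bases for PSMB9, against 789 to 1950 bases for the other beta genes. It was 390 bases for PSMG4, against 1182 to 2112 bases for the other assembly chaperones. The per-length levels of both genes therefore depend on their gene models.

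**Figure D2:**
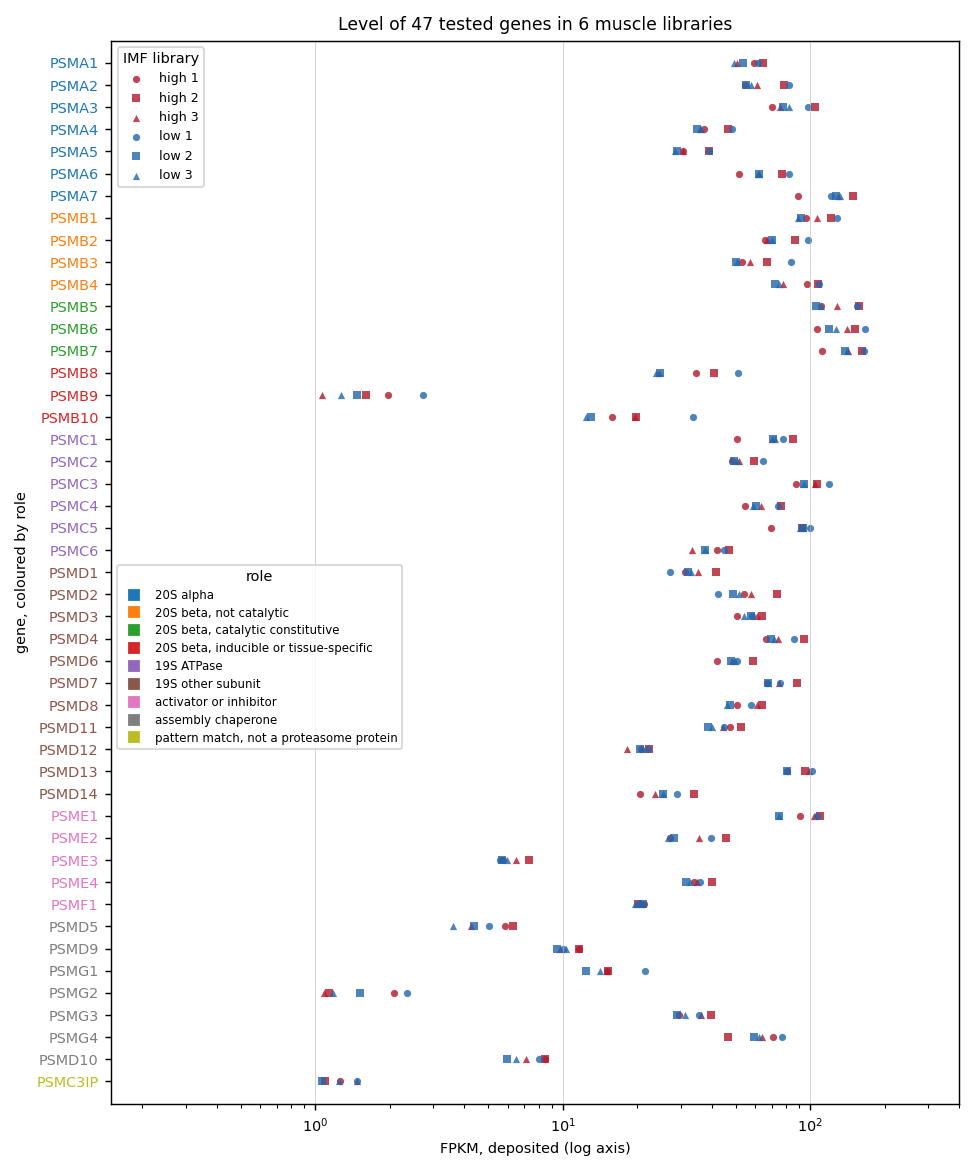
Deposited FPKM (log axis) of the 47 tested genes in each library, with high IMF libraries in red and low IMF libraries in blue and gene names coloured by role. Of the 47 genes, 38 average 20 FPKM or more, and PSMB9, PSMG2 and PSMC3IP lie lowest, with means of 1.68, 1.56 and 1.27 FPKM.

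The alpha subunits of the core were close in both groups. Of the 8 genes, 7 were tested, all 7 with a log2 fold below 0 (-0.22 to -0.04) and none past the threshold. PSMA6 had the smallest p. It measured 64.6, 99.3 and 102.3 CPM (read counts scaled to the normalised library sizes) in the high IMF libraries, against 114.6, 99.1 and 96.1 CPM in the low IMF libraries. High IMF replicate 1 stood apart below the others, and the groups overlapped. Its log2 fold was -0.22 ± 0.21 (SE), with an unadjusted p of 0.339 and an edgeR adjusted p of 0.911. PSMA3 measured 61.2, 94.1 and 86.6 CPM at high IMF and 95.7, 86.4 and 89.0 CPM at low IMF (log2 fold -0.16 ± 0.19, edgeR adjusted p = 0.930). PSMA7 had the widest spread of the 7, with 85.9, 147.9 and 163.3 CPM at high IMF, against 129.9, 156.1 and 157.8 CPM at low IMF, and again the lowest value was in high IMF replicate 1.

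PSMA8, an alpha subunit known from mammalian testis, was the gene that did not pass the filter. It had 12, 6 and 1 reads in the high IMF libraries, against 0, 0 and 0 reads in the low IMF libraries. A count of 0 allows up to 0.0647, 0.0658 and 0.0677 CPM of total reads in the 3 low IMF libraries, a limit of 3 reads that covers counting error only. Pooled over its libraries, the high IMF group was at 0.151 CPM of total reads, 6.87 times the level of 3 reads over the pooled low IMF group. Without high IMF replicate 1 that ratio was 3.67. Neither ratio allows for counting error in the high IMF reads or for variation between libraries. In high IMF replicate 3 the single read lay below the limit of 3 reads. With no filter on low counts, edgeR gave PSMA8 an unadjusted p of 0.0209 and an adjusted p of 0.653. The DESeq2 Wald test gave an unadjusted p of 0.025 and no adjusted p. PSMA8 resembles PSMA7, which had 3887 to 7883 reads per library, and no source used here says how reads shared between copies were counted.

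Of the beta subunits that do not cut proteins, PSMB1 to PSMB4, 3 had a log2 fold below 0 and 1 above, and none passed. PSMB2 measured 48.9, 66.4 and 65.1 CPM in the high IMF libraries, against 81.4, 66.9 and 65.0 CPM in the low IMF libraries. Low IMF replicate 1 was the highest and high IMF replicate 1 the lowest, with the other 4 libraries close together (log2 fold -0.24 ± 0.18, edgeR adjusted p = 0.873). PSMB3 had the same extremes, with 36.1, 46.9 and 51.0 CPM at high IMF and 63.5, 43.7 and 42.9 CPM at low IMF (log2 fold -0.16 ± 0.22, edgeR adjusted p = 0.936). PSMB4 had a log2 fold of 0.01. A separate unnamed row described in the file as similar to PSMB4 had 35 to 85 reads per library, beside 3192 to 5313 for PSMB4 itself.

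Averaged over all 6 libraries, the 3 constitutive catalytic subunits were the most abundant of the core per length, although at low IMF PSMA7 averaged 126.2 FPKM and PSMB5 123.4 FPKM. PSMB5 carries the chymotrypsin-like, PSMB6 the caspase-like and PSMB7 the trypsin-like activity. PSMB5 measured 110.0, 157.7 and 128.6 FPKM at high IMF and 154.6, 105.6 and 110.0 FPKM at low IMF. PSMB6 measured 106.7, 151.1 and 140.4 FPKM at high IMF and 166.5, 119.3 and 126.4 FPKM at low IMF. PSMB7 measured 111.9, 161.0 and 141.5 FPKM at high IMF and 164.8, 137.7 and 141.0 FPKM at low IMF. In each library these 3 levels lay close to each other, and the groups overlapped for all 3. In the fit to counts, the log2 folds were -0.01 ± 0.22 for PSMB5, -0.15 ± 0.23 for PSMB6 and -0.21 ± 0.22 for PSMB7 (SE, edgeR adjusted p = 0.994, 0.942 and 0.919).

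The inducible catalytic subunits PSMB8, PSMB9 and PSMB10 replace PSMB5, PSMB6 and PSMB7 in the immunoproteasome, a form known for producing peptides for antigen presentation and induced by interferon gamma. They had the widest spread among the catalytic subunits, and all 3 had their highest CPM in low IMF replicate 1. PSMB10 measured 26.6, 34.2 and 43.1 CPM in the high IMF libraries, against 63.3, 28.0 and 26.0 CPM in the low IMF libraries. Low IMF replicate 1 was 2.35 times the mean of the other low IMF libraries. PSMB8 measured 33.8, 41.0 and 31.5 CPM at high IMF and 55.8, 30.9 and 28.8 CPM at low IMF, and PSMB9 measured 7.38, 6.21 and 5.27 CPM at high IMF and 11.4, 7.08 and 5.98 CPM at low IMF. The same library was 1.87 times the mean of the other low IMF libraries for PSMB8 and 1.75 times for PSMB9. The log2 folds of high over low IMF muscle were -0.18 ± 0.37 for PSMB10, -0.12 ± 0.28 for PSMB8 and -0.38 ± 0.30 for PSMB9 (SE, edgeR adjusted p = 0.962, 0.965 and 0.878). Without low IMF replicate 1 they were 0.35, 0.23 and -0.06, still past no threshold (edgeR adjusted p = 0.701, 0.740 and 0.960).

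Set against the constitutive subunits in the same library, the inducible subunits made up 13.8%, 11.7% and 9.90% of the summed FPKM of all 6 in the high IMF libraries and 15.3%, 9.75% and 9.01% in the low IMF libraries. This share does not depend on the scaling between libraries, but it does depend on the gene lengths used for FPKM. The group means were 11.8% ± 1.93 at high IMF and 11.3% ± 3.42 at low IMF (SD, n = 3 each), a difference smaller than the spread within either group. On the log2 scale the inducible over constitutive ratio differed by 0.09 (high minus low), and by 0.36 without low IMF replicate 1. Of the 3 pairs, PSMB8 over PSMB5 was 0.315, 0.259 and 0.191 at high IMF and 0.331, 0.234 and 0.215 at low IMF. PSMB10 over PSMB7 was 0.141, 0.122 and 0.138 at high IMF and 0.204, 0.0941 and 0.0878 at low IMF. Low IMF replicate 1 had the highest ratio in both pairs. PSMB9 over PSMB6 was 0.0184, 0.0106 and 0.00755 at high IMF and 0.0163, 0.0123 and 0.0101 at low IMF, with its highest value in high IMF replicate 1. The size of this ratio depends on the implied gene models, of 4358 bases for PSMB9 and 1007 bases for PSMB6. PSMB11, the thymic catalytic subunit, was not among the genes listed.

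**Figure D3:**
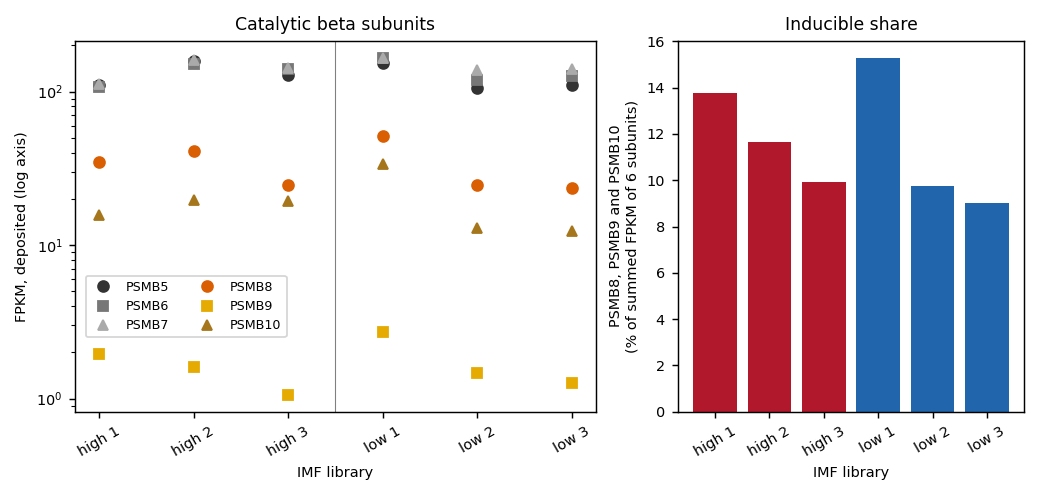
Left, deposited FPKM (log axis) of the constitutive (PSMB5, PSMB6, PSMB7) and inducible (PSMB8, PSMB9, PSMB10) catalytic subunits in each library. Right, the inducible subunits as a percent of the summed FPKM of all 6, which is highest in low IMF replicate 1 (15.3%) and lowest in low IMF replicate 3 (9.01%).

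Genes of antigen processing and the interferon gamma response were looked at beside the inducible subunits. Of 16 listed and tested, 0 passed the edgeR threshold in either direction, 10 had a log2 fold above 0, and the median was 0.03. The groups did not overlap for 2 of the 16, TAPBP and IFNGR1, both lower at high IMF, where 13% of all genes tested had no overlap. Among the 16, NLRC5, an activator of class I genes, measured 28.9, 30.0 and 23.5 CPM at high IMF and 54.1, 31.0 and 29.4 CPM at low IMF. The peptide loading factor TAPBP measured 49.4, 45.5 and 49.2 CPM at high IMF and 83.9, 49.5 and 50.1 CPM at low IMF, with each high IMF library just below each low one (edgeR adjusted p = 0.851). Both genes had their highest value in low IMF replicate 1, as had 7 of the 16 genes, against 23.4% of all genes tested. NLRC5 is among the 4 genes of smallest p in the list and TAPBP was singled out after its values were seen. The other genes of smallest p were higher on average in high IMF muscle without passing. IRF1, a transcription factor of the interferon response, measured 27.3 ± 5.56 CPM at high IMF and 17.7 ± 6.75 at low IMF (SD, n = 3 each). The kinase gene JAK2 measured 26.1 ± 7.25 and the peptide transporter gene TAP1 22.6 ± 3.82 CPM in high IMF muscle, against 19.8 ± 1.32 and 18.2 ± 3.32 CPM in low IMF muscle. The edgeR adjusted p values of NLRC5, IRF1, JAK2 and TAP1 were 0.795, 0.736, 0.785 and 0.851.

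Most immune cell markers did not have their highest value of all 6 libraries in low IMF replicate 1. Most lymphocyte markers were nevertheless higher there than in the other low IMF libraries. Over the mean of those libraries the tested lymphocyte markers ran from 2.12 times for CD8A to 5.06 times for CD79A, apart from CD4 and MZB1 (0.867 and 0.780 times). On the centred log2 scale, the median level of the 9 tested lymphocyte markers was 1.45, 0.72 and 0.58 at high IMF and 0.06, -1.0 and -1.20 at low IMF. The 9 myeloid markers were at 1.23, 0.45 and -0.51 at high IMF and -0.51, -0.39 and -0.25 at low IMF. In each list 1 tested gene of 9 had its highest value in low IMF replicate 1, and no marker of either list was at 0 reads in any library. In the lymphocyte list that gene was the B cell marker CD79A, with 0.597, 0.694 and 0.550 CPM at high IMF and 1.17, 0.339 and 0.122 CPM at low IMF. The B cell marker MS4A1, too low to be tested, also peaked there, with 0.0663, 0.1501 and 0.0579 CPM at high IMF and 0.354, 0.0485 and 0.0486 CPM at low IMF. The summed FPKM of the lymphocyte list ran from 6.77 to 15.5 at high IMF and from 1.88 to 6.53 at low IMF, and that of the myeloid list from 16.3 to 72.7 at high IMF and from 19.3 to 19.6 at low IMF. The 7 endothelial markers did have their highest median level there, with 0.00, -0.15 and -0.76 at high IMF and 0.45, 0.22 and 0.20 at low IMF, and 4 of the 7 peaked in it. Their summed FPKM ran from 100.6 to 228.0 at high IMF and from 196.3 to 248.9 at low IMF, with none at 0. The part of these cell types in the inducible subunit levels was not tested. In whole muscle, fewer cells of a type and less RNA per cell cannot be told apart.

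The 19S ATPases, PSMC1 to PSMC6, form the ring that unfolds the substrate. All 6 had a log2 fold below 0, from -0.26 to -0.11, and none passed. PSMC5 measured 85.3, 118.1 and 151.8 CPM in the high IMF libraries, against 137.0, 147.8 and 139.9 CPM in the low IMF libraries. The high IMF libraries spanned a wide range around the low ones (log2 fold -0.26 ± 0.23, edgeR adjusted p = 0.898). PSMC2 measured 64.4, 81.3 and 90.2 CPM at high IMF and 95.8, 83.8 and 84.6 CPM at low IMF (log2 fold -0.16 ± 0.18, edgeR adjusted p = 0.919). PSMC3, the most abundant of the 6, measured 120.8, 151.5 and 191.0 CPM at high IMF and 184.1, 166.6 and 163.2 CPM at low IMF.

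Of the other 11 subunits of the 19S particle, 5 had a log2 fold above 0 and 6 below, and none passed. PSMD12 was the only tested proteasome gene whose groups did not overlap, 1 of 47 or 2.13%, against 13% of all genes tested (6.86% higher and 6.1% lower). It measured 59.7, 65.7 and 68.7 CPM in the high IMF libraries, against 71.2, 75.3 and 75.0 CPM in the low IMF libraries. Each high IMF library lay below each low one, by a small margin. The log2 fold was -0.19 ± 0.14, with a 95% interval from -0.52 to 0.13 and an edgeR adjusted p of 0.867.

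PSMD2 and PSMD1, the largest scaffold subunits of the base, ran opposite to the core subunits in low IMF replicate 1. PSMD2 measured 158.7, 221.4 and 222.8 CPM at high IMF and 139.7, 183.9 and 189.4 CPM at low IMF (log2 fold 0.23 ± 0.22, edgeR adjusted p = 0.904). PSMD1 measured 93.8, 128.1 and 138.9 CPM at high IMF and 90.9, 122.7 and 123.1 CPM at low IMF. Both had their lowest value in low IMF replicate 1, where 12 of the 14 standard core subunits had their highest. Among the members with other tasks, the ubiquitin receptor PSMD4 measured 101.0 ± 20.6 CPM at high IMF and 105.9 ± 5.01 at low IMF, and the deubiquitinase PSMD14 42.8 ± 11.0 CPM at high IMF and 47.8 ± 0.646 at low IMF (SD, n = 3 each). PSMD1 and PSMD2 were singled out after their values were seen, apart from PSMD2's place among the smallest p of its role.

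The balance of core to regulatory particle was steady in all libraries but 1. The geometric mean FPKM of the 14 standard core subunits over that of the 17 subunits of the 19S particle was 1.42, 1.46 and 1.38 in the high IMF libraries and 1.66, 1.38 and 1.39 in the low IMF libraries. Low IMF replicate 1 stood above the other 5, which lay within a narrow range. On the log2 scale the ratio was 0.51 ± 0.04 at high IMF and 0.56 ± 0.15 at low IMF (SD, n = 3 each), a difference of -0.05 that was smaller than the spread in low IMF muscle. Without low IMF replicate 1 the difference was 0.03.

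The activators open the core without the 19S particle. PSME1 and PSME2 form an activator that interferon gamma induces, PSME3 forms its nuclear relative, PSME4 is a large single-chain activator, and PSMF1 is known as an inhibitor of the core. Of these 5 genes, 4 had a log2 fold above 0 and PSMF1 one below 0, and none passed. PSME1 measured 89.0, 109.8 and 133.2 CPM at high IMF and 115.7, 93.1 and 91.0 CPM at low IMF, with overlap (log2 fold 0.15 ± 0.20, edgeR adjusted p = 0.937). PSME2 measured 19.95, 34.5 and 34.1 CPM at high IMF and 32.7, 26.4 and 24.2 CPM at low IMF (edgeR adjusted p = 0.970). Unlike the inducible catalytic subunits, neither gene had its highest value in low IMF replicate 1. That library was still 1.26 times the mean of the other low IMF libraries for PSME1 and 1.29 times for PSME2. PSMF1 measured 45.7, 44.6 and 58.9 CPM at high IMF and 49.0, 58.3 and 52.5 CPM at low IMF (log2 fold -0.10 ± 0.17, edgeR adjusted p = 0.953). PSME4 measured 222.8 ± 34.0 CPM at high IMF and 222.3 ± 2.37 at low IMF, a log2 fold of 0.00.

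The assembly chaperones build the particles and leave them. PSMG1 to PSMG4 assemble the core, and PSMD5, PSMD9 and PSMD10 assemble the base of the 19S particle. Of these 7 genes, 4 had a log2 fold above 0 and 3 below, and none passed. PSMG4 measured 23.8, 16.2 and 28.2 CPM in the high IMF libraries, against 29.0, 25.6 and 26.1 CPM in the low IMF libraries. High IMF replicate 2 was the lowest library here (log2 fold -0.24 ± 0.22, edgeR adjusted p = 0.901). PSMD5 measured 10.6, 11.8 and 10.2 CPM at high IMF and 10.3, 10.2 and 8.22 CPM at low IMF (log2 fold 0.19 ± 0.19, edgeR adjusted p = 0.914). PSMD9 had the narrowest spread of all 47 genes, with its highest library 1.15 times its lowest, whereas the widest was the 2.43 times of PSMB10. The row named PSMG2 had 50 to 128 reads per library, and a separate unnamed row described as the same chaperone had 598 to 847, so the level of PSMG2 is uncertain.

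PSMC3IP, which is no proteasome gene, measured 2.08, 1.86 and 3.19 CPM at high IMF and 2.73, 2.23 and 2.58 CPM at low IMF (log2 fold -0.09 ± 0.32, edgeR adjusted p = 0.976). Its level was the lowest of the 47 tested genes per length, at 1.27 FPKM.

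Single libraries stood apart across many of these genes. High IMF replicate 1 held the lowest CPM of 34 of the 47 genes, or 72.3%, against 19.7% of all genes tested. High IMF replicate 3 held the highest of 21 and low IMF replicate 1 the highest of 20, or 44.7% and 42.6%, against 22.3% and 23.4% of all genes. The median level of the 47 genes on the centred log2 scale was -0.33, 0.07 and 0.18 at high IMF and 0.15, 0.01 and 0.01 at low IMF. The 2 extremes thus both lay in high IMF muscle. The order rested on the scaling. With library size only, high IMF replicate 1 was the lowest for 17 genes, or 36.2%, against 9.6% of all genes tested. High IMF replicate 3 was then the highest for 0 genes, against 8.92% of all genes. High IMF replicate 2 was the highest for 23 and low IMF replicate 1 for 21, or 48.9% and 44.7%, against 24.5% and 23.4% of all genes. As a share of all assigned reads, without any other scaling, the 48 genes took 0.340%, 0.439% and 0.378% at high IMF and 0.419%, 0.345% and 0.350% at low IMF. The group means of this share were 0.385% ± 0.0499 at high IMF and 0.371% ± 0.0417 at low IMF (SD, n = 3 each), which differed by less than the spread in either group. The median over the genes of the SD of log2 CPM across the 6 libraries was 0.23, beside 0.36 for all genes tested.

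**Figure D4:**
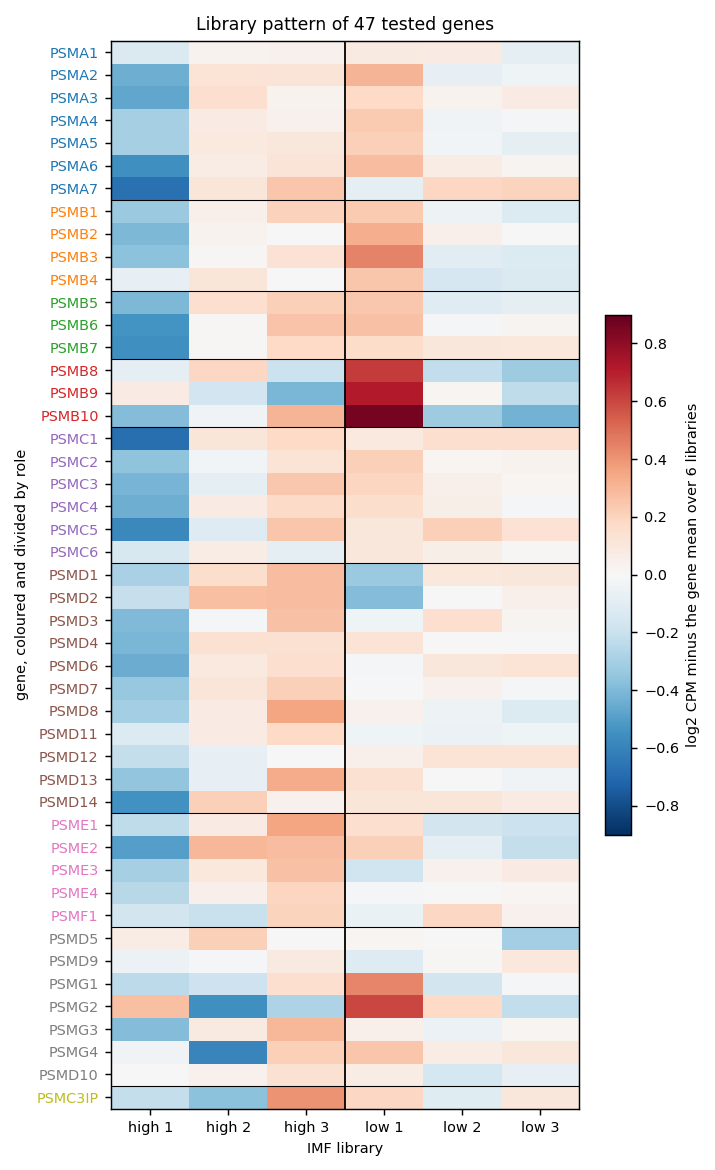
Log2 CPM of each tested gene minus its mean over the 6 libraries, with high IMF libraries left of the line and low IMF libraries right of it and genes divided by role. High IMF replicate 1 is lowest for 34 of 47 genes, and the inducible subunits PSMB8, PSMB9 and PSMB10 stand out in low IMF replicate 1.

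**Figure D5:**
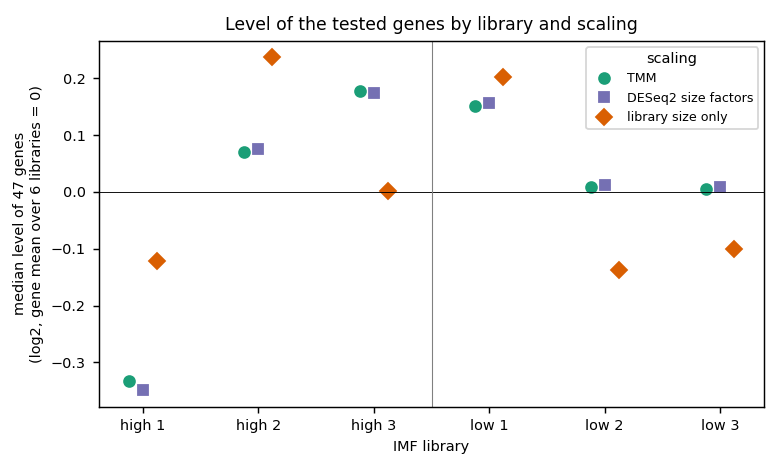
Median centred log2 level of the 47 tested genes in each library under each of 3 scalings. High IMF replicate 1 is at -0.33 with TMM and at -0.12 with library size only, and high IMF replicate 3 is at 0.18 and 0.00.

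Markers of other cell types moved with these libraries. The 6 fibroblast markers had median levels of 1.09, 0.98 and -1.45 at high IMF and -0.99, 0.03 and 0.19 at low IMF. Their median was thus highest where that of the proteasome genes was lowest, in high IMF replicate 1, and lowest in high IMF replicate 3. By gene, PDGFRA and DCN were highest in high IMF replicate 2, and THY1 was lowest in low IMF replicate 1. The summed FPKM of the 6 fibroblast markers ran from 65.3 to 430.8 at high IMF and from 99.2 to 223.2 at low IMF, and none was at 0 reads. The median of the myeloid markers was also highest in high IMF replicate 1, although CD68 was highest in low IMF replicate 1. The 3 smooth muscle markers were at -0.55, -0.06 and -0.50 at high IMF and -0.35, 0.90 and 0.61 at low IMF. Only their median was lowest in high IMF replicate 1, with high IMF replicate 3 close to it. By gene, TAGLN was lowest in high IMF replicate 1, MYH11 in high IMF replicate 3 and ACTA2 in low IMF replicate 1. The summed FPKM of the 3 markers ran from 152.8, in high IMF replicate 3, to 255.8 at high IMF. At low IMF it ran from 182.1 to 409.9, and no marker was at 0 reads. Of these 3, edgeR called 0 after adjustment and the DESeq2 Wald test called MYH11 lower at high IMF (DESeq2 adjusted p = 0.0191). The DESeq2 Wald test also called 1 gene in each of the endothelial, myeloid and lymphocyte lists, where edgeR called 0. These were FLT1, lower at high IMF, and SPI1 and MZB1, both higher (DESeq2 adjusted p = 0.000663, 0.0375 and 0.044). Of all genes to which DESeq2 gave an adjusted p, 1.16% were called. The 13 muscle fibre markers, which include CKM, ACTA1 and TTN, were all present. Their median levels were -0.04, -0.18 and 0.14 at high IMF and 0.21, -0.07 and 0.14 at low IMF. These medians hide opposite movements in high IMF replicate 1, where 6 of the 13 were lowest. MYLPF measured 1496, 6647 and 8967 CPM at high IMF and 7250, 9300 and 9133 CPM at low IMF. TNNT3, TNNC2 and TNNI2 were also far lower in high IMF replicate 1 than elsewhere, whereas TNNT1, TNNI1 and MYL2 were highest there. The part of the cell mixture in the library order was not tested. Low IMF replicates 2 and 3 were nearly alike for the 47 genes, with a median absolute log2 difference of 0.04, where the other pairs of libraries had 0.12 to 0.55. Over all genes, a chi-square per gene of 8.73 set this pair apart from the other pairs, at 120.0 to 673. The labels list them as 2 samples and they were counted so. Whether they share an animal was not tested, and with both summed as 1 sample edgeR called 0 of the 47.

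Partners of the proteasome outside the name pattern were examined as well. Of 17 listed, 16 were found and tested, 0 passed after adjustment in edgeR, and 11 had a log2 fold below 0. POMP, the maturation factor of the core, measured 71.6, 106.6 and 133.1 CPM at high IMF and 120.3, 105.6 and 103.7 CPM at low IMF. The ubiquitin receptor ADRM1 measured 120.4, 163.7 and 189.6 CPM at high IMF and 182.1, 157.2 and 158.3 CPM at low IMF. SEM1, a small subunit of the 19S particle matched through its gene number, measured 52.3, 94.98 and 120.5 CPM at high IMF and 73.5, 79.5 and 80.1 CPM at low IMF. For all 3 the range of the high IMF libraries enclosed the low ones (edgeR adjusted p = 0.971, 0.971 and 0.940). A separate row named SHFM1, whose description in the file names the proteasome, may be a second row of SEM1. It had 0 to 22 reads per library and was too low to be tested. NFE2L1, the transcription factor known to raise proteasome genes when the proteasome is impaired, measured 756.5, 907.1 and 667.4 CPM at high IMF and 1006, 744.3 and 706.5 CPM at low IMF (log2 fold -0.08 ± 0.24, edgeR adjusted p = 0.974). A row named KIAA0368, described in the file as the proteasome adaptor ECM29, was more abundant per length than most subunits, at 117.2 FPKM, with a log2 fold of 0.05 ± 0.29 (edgeR adjusted p = 0.983).

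ZFAND5, a zinc finger protein known to activate the 26S proteasome in muscle atrophy, had the smallest p among the partners. It measured 321.5, 253.0 and 394.2 CPM in the high IMF libraries, against 466.1, 526.6 and 504.0 CPM in the low IMF libraries. Each high IMF library lay below each low one. The log2 fold was -0.63 ± 0.22, with an edgeR unadjusted p of 0.0235 and an edgeR adjusted p of 0.607, so it did not pass. Of the 16 partners tested, 1 had groups without overlap, against 13% of all genes tested. At an edgeR unadjusted p under 0.05 there was also 1 of the 16, against 7.27% of all genes. The next smallest p values were those of the 19S assembly chaperone PAAF1, ZFAND2A and AKIRIN2, a factor for nuclear import of proteasomes (edgeR adjusted p = 0.867, 0.925 and 0.932).

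Among 19 genes of ubiquitin supply and delivery found of 20 listed, 0 passed after adjustment in edgeR. The groups did not overlap for 3 of the 19, 1 higher and 2 lower at high IMF, where 13% of all genes tested had no overlap. These were USP5, UBXN1 and RPS27A, which encodes ubiquitin fused to a ribosomal protein and was named after its values were seen. RPS27A measured 169.4, 179.1 and 173.2 CPM at high IMF and 227.6, 182.7 and 181.8 CPM at low IMF (edgeR adjusted p = 0.904). The polyubiquitin gene UBB measured 98.6, 93.1 and 124.6 CPM at high IMF and 97.9, 127.1 and 116.0 CPM at low IMF (edgeR adjusted p = 0.953). The deubiquitinase USP5 measured 70.9 ± 19.1 CPM at high IMF and 53.2 ± 2.29 at low IMF, and UBXN1, a cofactor of the unfoldase VCP, 94.0 ± 22.4 CPM at high and 118.2 ± 4.32 at low IMF (SD, n = 3 each, edgeR adjusted p = 0.752 and 0.841).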

How the data were processed

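RNA of 6 longissimus dorsi libraries was analysed. The authors deposited whole-number read counts for each gene, and the deposited FPKM values are the authors' counts per gene length and total. The authors' deposited table also holds a fold change (ratio) of high over low IMF, its log2 value, and p-values with adjusted p-values; these entered no test. The submitters' processing notes name HISAT2 and the build mm9, a mouse build, although gene names are those of donkey and horse. The sources used here do not give the genome, counter, strand use or treatment of shared reads. The labels name 2 different sequencers. The per-sample files equalled the series table (0 cells differed). In the RefSeq table of assembly EquAss-T2T_v2, used for names and neighbours only, 7 of the 48 genes overlap another protein-coding gene (PSMB3, PSMC1, PSMC5, PSMD1, PSME1, PSMG2 and PSMC3IP), so their reads may be shared.

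Counts of all genes were tested with edgeR 4.0.16 (quasi-likelihood F-test, TMM normalisation, filterByExpr defaults) in R 4.3.3, with Benjamini-Hochberg adjustment over 15933 genes at 0.05, two-sided. The SE of a log2 fold is its size over the square root of F. Alternatives used DESeq2 1.42.0, limma-voom 3.58.1, other scalings and filters, the replicate number as a block, and each library left out. CPM uses TMM-adjusted library sizes; intervals of 95% assume the fitted spread. The code was tested on simulated data. The motif search planned for promoters was not run, and no sequences are printed, because none were at hand.

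Members, lists and tests were chosen with earlier results of these data known. Named genes are the 2 of smallest p per role, every catalytic subunit, the levels at either end of each particle, and the 4 of smallest p per related list with POMP, ADRM1, SEM1 and NFE2L1; other named genes were chosen after their values were seen. Some genes that this rule names are not reported here. ECPAS and UFD1 were not found under these symbols. The row named KIAA0368, described as the adaptor ECM29, may be ECPAS under another name and was not counted among the partners tested.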

Additional observations from a re-analysis of the deposited data

How the results depend on the processing

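No proteasome gene was called under any alternative run: 0 of 47 in edgeR with DESeq2 size factors, library size only, no filter, a stricter filter or low IMF replicates 2 and 3 summed, in DESeq2, in limma-voom, and without each library in turn (0 to 0). Over all genes the DESeq2 Wald test called 194, and leaving out single libraries in edgeR gave 0 to 3, the 3 without high IMF replicate 1. The number of genes with a log2 fold below 0, 33 of 47, was 19 with library size only and 20 to 42 without each library in turn (fewest when high IMF replicate 1 was left out, most when high IMF replicate 3 was), and the median of -0.11 ran from -0.22 to 0.02 over those runs. The catalytic subunit ratio of 0.09 ran from -0.08 to 0.36 and the core over 19S ratio of -0.05 from -0.10 to 0.03. With library size only, genes lowest in high IMF replicate 1 numbered 17 in place of 34, and genes highest in high IMF replicate 3 numbered 0 in place of 21. Of all genes tested, 9.6% in place of 19.7% were lowest in high IMF replicate 1, and 8.92% in place of 22.3% highest in high IMF replicate 3. Single folds changed sign, none being past the threshold, for 14 genes with library size only, for 13 when high IMF replicate 1 was left out, for 11 when low IMF replicate 1 was, for 9 when high IMF replicate 3 was, and for 0 to 7 in the other runs. PSMC5 reached an unadjusted p under 0.05 without high IMF replicate 3 (log2 fold -0.48, edgeR adjusted p = 0.378), 1 of 47 genes where 12.5% of all genes did. Same-numbered libraries shared deviations with correlations of 0.19, 0.14 and 0.01 across genes, so the numbers were not taken to pair them; with the replicate number as a block, 0 genes were called, 0 of them members, 36 of 47 folds were below 0 and the median was -0.11. With 3 libraries a group, the 95% interval lay within 1.5-fold either way for 23 of 47 genes. PSMA8, at 0 to 12 reads, is limited by depth.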
